A study of Mus with 12 samples.

Results

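The genes of the mTOR complexes were followed in RNA of mouse primary macrophages from the peritoneum, the lining of the abdomen. The 10 genes were chosen by name, for their known place in the pathway, and all 10 were found once each among the 27294 genes of the deposited table. They are the kinase gene Mtor, the subunit genes Mlst8, Rptor, Akt1s1 and Rictor, the brake Deptor, the upstream regulators Tsc1, Tsc2 and Rheb, and the stress-responsive gene Ddit4. The set was put together with the low Deptor level of oxLDL-treated wild-type cells already known, so the oxLDL comparison in wild type is described here for every member without a test. Gene expression was read in 12 libraries, 3 in each of 4 groups: knockout (KO) with oxidised low-density lipoprotein (oxLDL), KO untreated, wild type (WT) with oxLDL and WT untreated. The treatment label says oxLDL, whereas the sample titles say LDL, and untreated libraries carry no treatment label. The genotype label names no gene and the series title names WEE1. The sources used here do not give age, sex, strain, how the knockout was made, dose or time of treatment, or whether cells of several mice were pooled.

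The kinase mTOR works in a pair of complexes that share it and the stabilising subunit MLST8. In mTORC1 the scaffold RAPTOR (gene Rptor) recruits substrates that raise protein and lipid synthesis and restrain autophagy, and PRAS40 (gene Akt1s1) inhibits it. In mTORC2 the scaffold RICTOR directs the kinase to AKT and SGK1. DEPTOR binds the kinase and inhibits both complexes. RHEB bound to GTP activates mTORC1 at the lysosome, the TSC1 and TSC2 proteins switch RHEB off, and REDD1 (gene Ddit4) acts through TSC under stress. In macrophages this pathway couples nutrient and growth factor supply to metabolism and cytokine production.

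Library totals ran from 53588814 to 76809931 counts, with the lowest total of each treatment in WT replicate 2. The 10 genes passed the filter on low counts, among 17291 genes tested. Wee1, the gene named in the series title, was at 1.22 to 1.63 FPKM over both KO groups. It was at 1.44 to 1.78 FPKM in oxLDL-treated WT cells and at 2.8 to 3.25 FPKM in untreated WT cells. Its RNA was therefore not absent from KO, and its levels overlapped between KO and WT under oxLDL. FPKM is the authors' fragment count scaled to transcript length and library size. All 7 macrophage markers exceeded 1 FPKM in each group, and they summed to between 10600 and 11800 FPKM over both KO groups. In WT these sums were 14600 to 15600 FPKM under oxLDL and 21000 to 21400 FPKM without it. Lyz2 made up most of each sum, averaging 8540 and 8860 FPKM in KO with and without oxLDL, against 12500 and 18500 FPKM in WT. In the same order, Csf1r averaged 134 and 131 FPKM in KO, against 137 and 273 FPKM in WT. Itgam averaged 156 and 155 FPKM, against 172 and 202 FPKM, and Mertk 47.3 and 48.4 FPKM, against 58.7 and 57 FPKM. The single markers did not move together: Cd68 averaged 2000 FPKM in each KO group, against 1380 FPKM in WT with oxLDL and 1630 FPKM untreated, whereas Adgre1 averaged 152 and 158 FPKM in the KO groups with and without oxLDL, against 762 and 545 FPKM in WT, and Fcgr1 9.28 and 9.32 FPKM, against 131 and 40.9 FPKM. Of the 4 markers of large peritoneal macrophages, Gata6, the transcription factor that defines them, averaged 0.0991 to 0.249 FPKM over the 4 groups. Those 4 markers summed to 37.4 to 42.8 FPKM over both KO groups, 30.6 to 33.9 FPKM in oxLDL-treated WT cells and 63.2 to 71.8 FPKM in untreated WT cells, with none at 0 in a whole group. Cd5l made up most of these sums, and Timd4 averaged 0.0935 and 0.0126 FPKM in the KO groups with and without oxLDL, against 1.75 and 1.47 FPKM in WT. Mast cell markers summed to 0.87 to 1.37 FPKM over both KO groups, 1.96 to 2.49 FPKM in oxLDL-treated WT cells and 3.63 to 4.44 FPKM in untreated WT cells, with 0 of 5 above 1 FPKM outside untreated WT and 2 of 5 in it, and Fcer1a at 0 in that group. The 6 mesothelial and fibroblast markers summed to 3.86 to 4.75 FPKM in KO libraries and 6.66 to 7.68 FPKM in WT libraries, with 2 of 6 above 1 FPKM in each group and none at 0 in a whole group. Neutrophil markers summed to 2.04 to 2.74 FPKM in KO libraries and 2.86 to 4.1 FPKM in WT libraries. In each group 1 of the 5 was above 1 FPKM, and Ly6g was at 0 in 3 of the groups. S100a8 averaged 1.47 FPKM in each KO group, against 3.6 and 3.17 FPKM in WT with and without oxLDL. Cxcr2 went the other way, at 0.995 and 0.961 FPKM in KO, against 0 and 0.044 FPKM in WT. B cell markers summed to 1.69 to 2.53 FPKM in KO libraries and 0.91 to 1.74 FPKM in WT libraries. T and NK cell markers summed to at most 0.138 FPKM in KO libraries, with Cd3e at 0 in both KO groups. In WT they summed to 0.226 to 0.563 FPKM with oxLDL and 0.645 to 1.02 FPKM untreated. Dendritic cell markers summed to 0.337 to 0.641 FPKM in KO libraries and 0.117 to 0.164 FPKM in WT libraries. Adipocyte markers, looked at because the protocol text mentions an adipose type, summed to at most 0.101 FPKM over the 2 of 4 used here. The part of these differences in the results below was not tested. In such bulk RNA, fewer cells that express a gene and less of its RNA per cell cannot be told apart.

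Levels are given below as deposited FPKM, and differences as log2 values that edgeR fitted to the counts with TMM scaling, a correction for composition that divided WT libraries with oxLDL by 0.832 to 0.843 and untreated WT libraries by 1.1 to 1.125. KO libraries had factors of 1.029 to 1.038. Without this correction the median gene moved by -0.46 log2 with oxLDL in WT; between genotypes (KO against WT) it moved by 0.36 log2 under oxLDL and -0.12 log2 untreated; with TMM these medians were -0.06, 0.05 and -0.01. Small differences between WT groups therefore depend on the scale, and they are given on both scales where the direction differs. Group means of TMM-scaled FPKM are the deposited values divided by these factors.

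Deptor, the brake on both complexes, was the member that differed most between groups in these libraries. It lies on chromosome 15 at 55112317 to 55259271 (GRCm38, plus strand; ENSMUSG00000022419). Deptor had 4.42, 4.52 and 4.61 FPKM in KO with oxLDL and 4.83, 4.10 and 5.09 FPKM in untreated KO. In WT with oxLDL it had 0.147, 0.0827 and 0.133 FPKM, against 3.10, 3.46 and 3.46 FPKM in untreated WT. The 3 WT libraries with oxLDL thus stood far below the other 9, with 42 to 103 Deptor counts each, and the 6 KO libraries lay above all WT libraries. In KO the treated and untreated libraries overlapped, and the log2 change with oxLDL was -0.05 ± 0.11 (SE; quasi-likelihood test of edgeR, adjusted by Benjamini-Hochberg over all genes; adjusted p = 0.998). This is the only comparison of Deptor that shares no library with the one in which it was noticed. As descriptions, its level with oxLDL in WT differed by -4.34 ± 0.14 log2, which is 0.0495 times the untreated level, and KO against WT differed by 4.88 ± 0.14 log2 with oxLDL and by 0.59 ± 0.11 log2 untreated. In order, Deptor stood highest in untreated KO (4.68 ± 0.51 FPKM; SD, n = 3) and KO with oxLDL (4.52 ± 0.094 FPKM), which did not differ beyond their spread, followed by untreated WT (3.34 ± 0.21 FPKM) and WT with oxLDL (0.121 ± 0.034 FPKM).

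**Figure D1:**
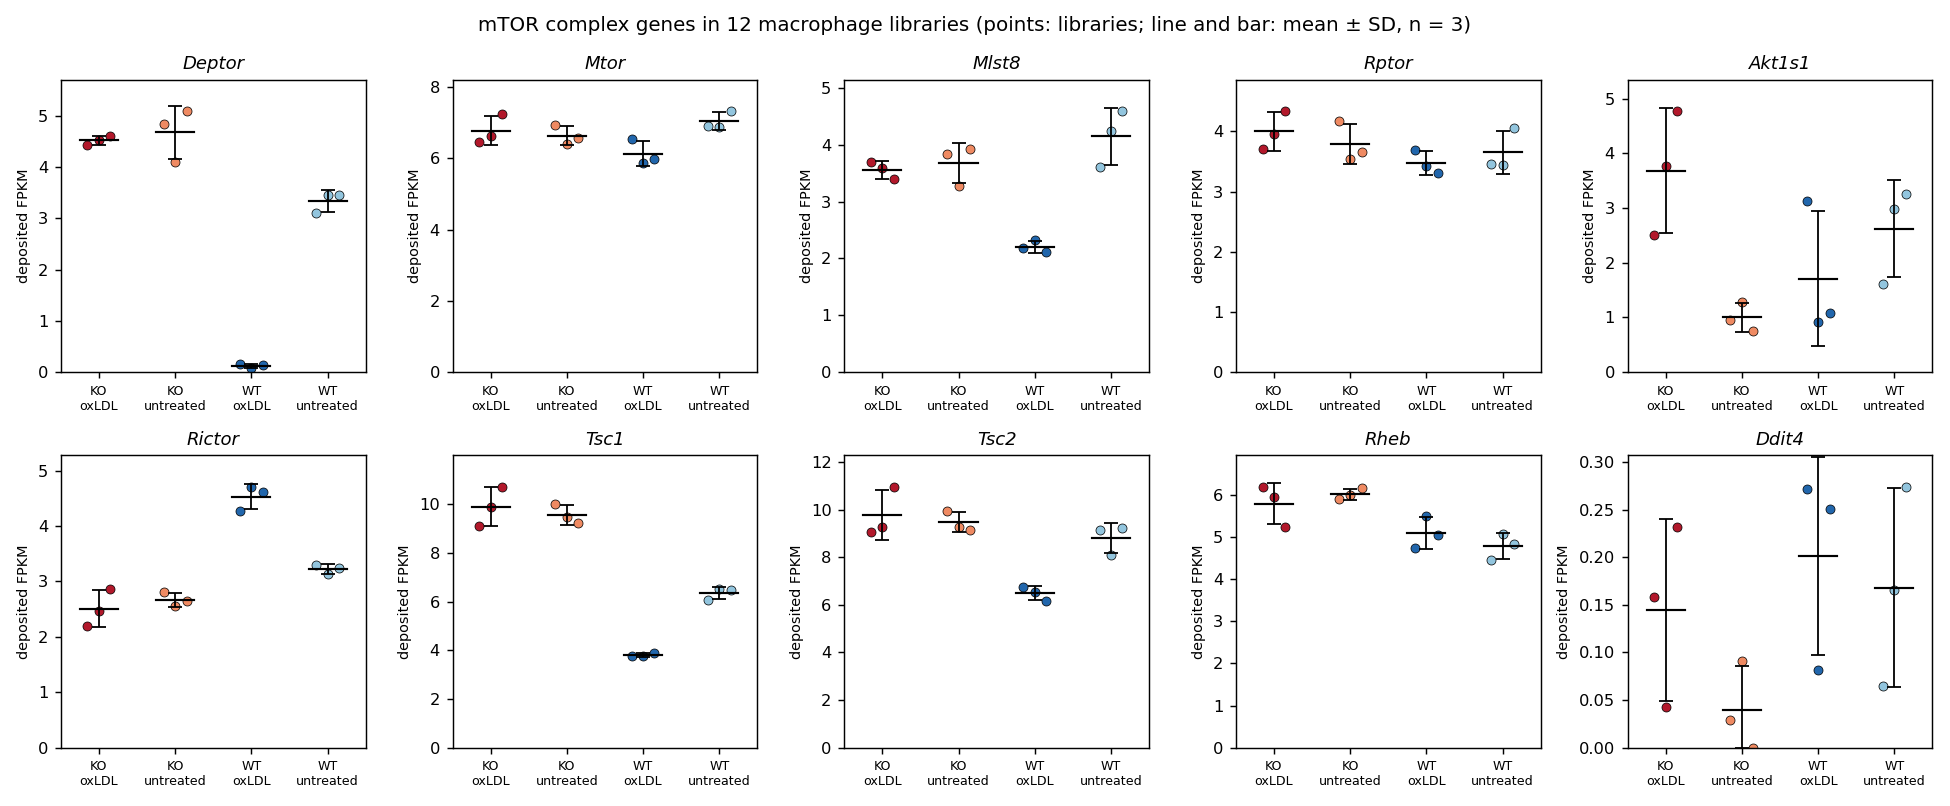
Deposited FPKM (vertical axes, each starting at 0) of the 10 genes in KO with oxLDL, untreated KO, WT with oxLDL and untreated WT; points are libraries, horizontal lines and bars the mean ± SD of 3, with the lower bar stopped at 0. Deptor is between 0.0827 and 0.147 FPKM in WT with oxLDL and at 3.10 FPKM or more in the other 9 libraries, while Rictor is highest in WT with oxLDL at 4.27 to 4.71 FPKM.

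Mtor itself (chromosome 4, 148448611 to 148557683 on GRCm38, plus strand) varied little. It had 6.46, 6.62 and 7.25 FPKM in KO with oxLDL and 6.92, 6.39 and 6.58 FPKM in untreated KO, with a fitted change of 0.03 ± 0.06 log2 that did not pass (edgeR adjusted p = 0.997). WT with oxLDL had 6.54, 5.87 and 5.99 FPKM, against 6.91, 6.88 and 7.33 FPKM in untreated WT. Those WT groups did not overlap, with the oxLDL libraries lower in deposited FPKM but higher after TMM scaling, at 7.31 ± 0.41 against 6.32 ± 0.23 TMM-scaled FPKM (SD, n = 3), so the fitted difference of 0.21 ± 0.06 log2 became -0.20 with library totals alone. The KO against WT difference with oxLDL had the same dependence: it was -0.16 ± 0.06 log2 with TMM (edgeR adjusted p = 0.0323) and 0.15 log2 with library totals alone (edgeR adjusted p = 0.0449). It also missed the threshold without any 1 of 4 libraries: replicate 1 or 2 of KO with oxLDL, replicate 3 of untreated KO, or replicate 1 of WT with oxLDL (-0.15 to -0.12 log2, edgeR adjusted p of 0.0545 to 0.127). The same held with upper quartile scaling, with no filter on low counts and with the 2 groups alone (edgeR adjusted p = 0.422, 0.129 and 0.0623). Untreated KO and WT differed by 0.02 ± 0.06 log2 (edgeR adjusted p = 0.857).

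Mlst8, the subunit that both complexes share, was lowest in WT with oxLDL. Mlst8 (chromosome 17, 24473551 to 24479078, minus strand) had 3.70, 3.59 and 3.39 FPKM in KO with oxLDL and 3.84, 3.28 and 3.93 FPKM in untreated KO. WT with oxLDL had 2.19, 2.32 and 2.11 FPKM, against 3.61, 4.25 and 4.6 FPKM in untreated WT, with no overlap. Its level under oxLDL was higher in KO than in WT by 0.39 ± 0.10 log2 (edgeR adjusted p = 0.00353), whereas untreated KO and WT overlapped (-0.07 ± 0.10 log2, edgeR adjusted p = 0.689). The oxLDL difference in WT was -0.50 ± 0.10 log2, and that in KO -0.05 ± 0.10 log2 (edgeR adjusted p = 0.998).

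Among the mTORC1 subunits, Rptor (chromosome 11, 119602905 to 119899407, plus strand) stayed within a narrow range. It had 3.71, 3.95 and 4.34 FPKM in KO with oxLDL, 4.16, 3.54 and 3.65 FPKM in untreated KO, 3.68, 3.43 and 3.30 FPKM in WT with oxLDL and 3.45, 3.45 and 4.06 FPKM in untreated WT. No comparison of Rptor outside WT passed: edgeR adjusted p was 0.975 for oxLDL in KO, 0.181 for KO against WT untreated and 0.331 with oxLDL. With library totals alone the last of these passed, at 0.21 log2 (edgeR adjusted p = 0.0453), and the deposited FPKM of those groups did not overlap. Its difference with oxLDL in WT was 0.33 ± 0.08 log2 with TMM and -0.07 log2 with library totals alone.

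Akt1s1, the gene of the mTORC1 inhibitor PRAS40, varied widely between libraries of the same group. Akt1s1 (chromosome 7, 44848991 to 44855421, plus strand) had 2.50, 3.77 and 4.77 FPKM in KO with oxLDL, against 0.960, 1.28 and 0.758 FPKM in untreated KO. In WT with oxLDL it had 3.13, 0.921 and 1.07 FPKM, against 1.61, 2.99 and 3.26 FPKM in untreated WT. The KO groups did not overlap, yet the log2 change of 1.87 ± 0.41 (SE, 3.66-fold) missed the threshold over all genes (edgeR adjusted p = 0.233). It passed with DESeq2 (adjusted p = 0.0334), with a fit of the 2 KO groups alone (edgeR adjusted p = 0.0124) and without replicate 1 of WT with oxLDL (edgeR adjusted p = 0.0342). Over all alternatives that left out 1 library, adjusted p ran from 0.0342 to 0.803. Untreated, Akt1s1 was lower in KO than in WT by 1.27 ± 0.41 log2 units (edgeR adjusted p = 0.0296), a call lost without any 1 of untreated KO replicates 1 or 3 and untreated WT replicates 2 or 3 (log2 differences of -1.24 to -1.08, edgeR adjusted p of 0.0842 to 0.118). It was also lost with limma on log2(FPKM + 1) and log2(FPKM + 0.1) (adjusted p = 0.0549 and 0.0548) and without the 2 shallowest libraries (edgeR adjusted p = 0.0611). With oxLDL the KO against WT difference of 0.79 ± 0.40 log2 did not pass (edgeR adjusted p = 0.108), but replicate 1 of WT with oxLDL decided this: without it the difference was 1.54 log2 (edgeR adjusted p = 0.00106). It also passed with library totals alone, at 1.09 log2 (edgeR adjusted p = 0.0293), and with limma at both pseudocounts (adjusted p = 0.0292 and 0.0355). The within-group SD of Akt1s1 was 0.617 on the log2 scale, larger than that of 98.7% of the 1396 genes within 0.5 log2 of its mean level. Akt1s1 overlaps Tbc1d17 on the opposite strand over a small part of its span. Without a known strand setting, reads from such a shared stretch cannot be assigned to either gene. The share of Akt1s1 counts that fall there was not tested.

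Rictor, the defining scaffold of mTORC2, was the member with the clearest higher level in WT with oxLDL. Rictor (chromosome 15, 6708379 to 6780634, plus strand) had 2.20, 2.47 and 2.87 FPKM in KO with oxLDL and 2.81, 2.56 and 2.64 FPKM in untreated KO. WT with oxLDL had 4.27, 4.71 and 4.62 FPKM, against 3.30, 3.13 and 3.23 FPKM in untreated WT. All 3 WT libraries with oxLDL exceeded the other 9, on both scales. With oxLDL, Rictor was lower in KO than in WT by 1.15 ± 0.08 log2 units (0.45 times the WT level; edgeR adjusted p = 1.12e-08), and this call held under all alternatives tried. Untreated KO libraries also lay below untreated WT ones, but the difference of -0.17 ± 0.08 log2 did not pass (edgeR adjusted p = 0.148), although it did with library totals alone (-0.27 log2, edgeR adjusted p = 0.0157) and without replicate 3 of KO with oxLDL (-0.17 log2, edgeR adjusted p = 0.0472), with limma at both pseudocounts (adjusted p = 0.0309 and 0.0483) and with the 2 groups alone (edgeR adjusted p = 0.0418). The oxLDL difference was 0.90 ± 0.08 log2 in WT, or 0.49 with library totals alone, and -0.09 ± 0.08 log2 in KO (edgeR adjusted p = 0.946).

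The TSC genes, whose products switch RHEB off, were higher in KO than in WT, Tsc1 in both treatments. Tsc1 (chromosome 2, 28641228 to 28691167, plus strand) had 9.09, 9.88 and 10.7 FPKM in KO with oxLDL, against 3.78, 3.75 and 3.89 FPKM in WT with oxLDL. Untreated, it had 10.0, 9.45 and 9.20 FPKM in KO, against 6.08, 6.50 and 6.46 FPKM in WT. No KO library overlapped a WT library, and the lowest KO value of 9.09 FPKM was well above the highest WT value. KO exceeded WT by 1.07 ± 0.06 log2 with oxLDL (2.1-fold; edgeR adjusted p = 4.77e-10) and by 0.70 ± 0.06 log2 untreated (1.62-fold; edgeR adjusted p = 1.88e-07), under all alternatives. In WT the oxLDL libraries lay below the untreated ones on both scales (-0.33 ± 0.06 log2), and in KO the groups overlapped (0.05 ± 0.06 log2, edgeR adjusted p = 0.982).

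Tsc2 (chromosome 17, 24595816 to 24632630, minus strand) differed less. It had 9.06, 9.26 and 10.96 FPKM in KO with oxLDL, against 6.76, 6.54 and 6.16 FPKM in WT with oxLDL, a difference of 0.29 ± 0.08 log2 (edgeR adjusted p = 0.00501). Untreated, 9.96, 9.29 and 9.16 FPKM in KO stood against 9.15, 8.09 and 9.23 FPKM in WT, which overlapped, and the difference of 0.21 ± 0.08 log2 missed the threshold (edgeR adjusted p = 0.0535). It passed without replicate 3 of KO with oxLDL (edgeR adjusted p = 0.0187), with upper quartile scaling (edgeR adjusted p = 0.0227), with DESeq2 (adjusted p = 0.0298) and with the 2 groups alone (edgeR adjusted p = 0.0237). In WT the 3 oxLDL libraries had less Tsc2 than the untreated ones in deposited FPKM but not after TMM scaling, at 7.73 ± 0.31 against 7.92 ± 0.64 TMM-scaled FPKM (SD, n = 3; -0.04 ± 0.08 log2). The change with oxLDL in KO was 0.04 ± 0.08 log2 (edgeR adjusted p = 0.997). Tsc2 overlaps Pkd1 on the opposite strand over 693 bases, and the same limit holds for reads from that stretch. Deptor overlaps Gm9920 over 1266 bases and Rptor overlaps Rptoros over 13554 bases, also on the opposite strand, as does Mtor with Angptl7. Each overlap is a small part of the member's span, and its share of the counts was not tested.

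Rheb, the GTPase that activates mTORC1, was higher in untreated KO than in untreated WT. Rheb (chromosome 5, 24802823 to 24842624, minus strand) had 5.89, 5.99 and 6.16 FPKM in untreated KO, against 4.45, 5.07 and 4.84 FPKM in untreated WT, a difference of 0.44 ± 0.07 log2 (1.35-fold; edgeR adjusted p = 0.000296) that held under all alternatives. KO with oxLDL had 6.19, 5.94 and 5.24 FPKM, against 4.74, 5.49 and 5.05 FPKM in WT with oxLDL, which overlapped. That difference was -0.12 ± 0.07 log2 with TMM (edgeR adjusted p = 0.201) and 0.19 log2 with library totals alone (edgeR adjusted p = 0.0435). The oxLDL difference in WT was 0.50 ± 0.07 log2 with TMM, at 6.07 ± 0.44 against 4.29 ± 0.23 TMM-scaled FPKM (SD, n = 3), and 0.09 log2 with library totals alone. In KO it was -0.05 ± 0.07 log2 (edgeR adjusted p = 0.988).

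Ddit4, which encodes the stress-induced inhibitor REDD1, was near the limit of detection in every library. Ddit4 (chromosome 10, 59949669 to 59951834, minus strand) had 23, 6 and 33 counts in KO with oxLDL, 4, 13 and 0 counts in untreated KO, 38, 9 and 35 counts in WT with oxLDL and 10, 17 and 38 counts in untreated WT. These are at most 0.274 FPKM, and the groups overlapped in every comparison. At these low and scattered counts no difference was detected. The edgeR adjusted p was 0.801 for oxLDL in KO, 0.174 for KO against WT untreated and 0.492 with oxLDL. Standard errors were 0.92 to 1.0 log2. Over the 12 libraries 16.9% of tested genes had a lower mean FPKM than Ddit4, compared with 51.1% for Akt1s1, the next lowest member, and 75.9% for Tsc2, the highest.

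Counted together, the members passed the test between genotypes about as often as all genes did, and none passed it for oxLDL in KO. For oxLDL in KO, 0 of 10 members passed edgeR's test, beside 0.0116% of all genes tested. DESeq2 called 1 of them, Akt1s1, beside 110 of 13595 genes. In edgeR, 1211 of the 17291 genes had an unadjusted p under 0.05. The median fitted change of the 10 was 0.04 log2, against -0.0038 over all genes. Their FPKM did not overlap between the KO groups for 1 of 10 members, Akt1s1, beside 12.9% of all genes. For KO against WT untreated, 2 of the 9 members other than Deptor were higher (Tsc1 and Rheb) and 1 was lower (Akt1s1), with 6 not called, and 31% of all genes were called. FPKM of those groups did not overlap for 4 of these 9, beside 46.4% of all genes, and for 5 of 9 after TMM scaling, beside 44.9%. Their median was 0.02 log2, against -0.01 over all genes. With oxLDL, 3 of the 9 were higher in KO (Tsc1, Tsc2 and Mlst8) and 2 lower (Rictor and Mtor), with 4 not called, beside 57.9% of all genes called. The median of the 9 was -0.10 log2, against 0.05 over all genes. FPKM did not overlap for 5 of 9, beside 66.9% of all genes, and for 4 of 9 after TMM scaling, beside 62.8%. The count called with oxLDL was 8 of 9 with library totals alone, beside 10840 of 17291 genes. For oxLDL in WT, the comparison with which the set was chosen, no test or count of members is given. FPKM did not overlap there for 66.7% of all genes, which bears on the members described above as not overlapping. The 2 KO comparisons with WT use different libraries, but each shares 3 libraries with the oxLDL comparison in KO and 3 with that in WT.

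**Figure D2:**
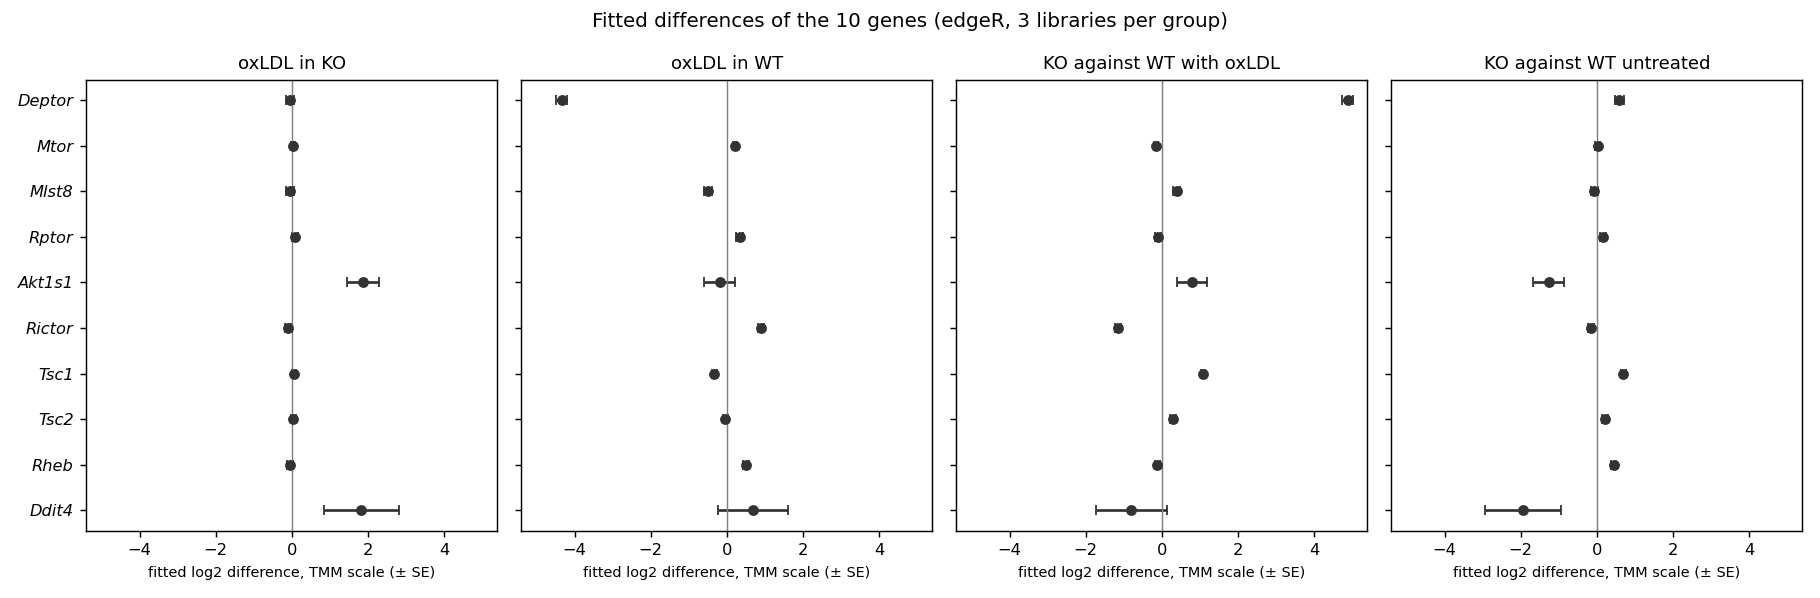
Fitted log2 differences on the TMM scale (horizontal axes; points with ± SE) of the 10 genes for oxLDL in KO, oxLDL in WT, KO against WT with oxLDL and KO against WT untreated. In KO 8 genes lie within 0.09 log2 of 0, with Akt1s1 at 1.87 and Ddit4 at 1.83 and wide errors, while Deptor is at -4.34 with oxLDL in WT.

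The difference between genotypes in the oxLDL response was described without a test, since it holds the WT comparison. Subtracting the WT difference from the KO one gave 4.29 ± 0.18 log2 for Deptor. It gave 2.06 ± 0.57 log2 for Akt1s1, or 2.82 without replicate 1 of WT with oxLDL. The value was -0.99 ± 0.11 for Rictor and -0.55 ± 0.10 for Rheb, and these were -0.58 and -0.14 with library totals alone. For Mlst8 it was 0.45 ± 0.14 and for Tsc1 0.38 ± 0.08, which became 0.87 and 0.79 with library totals alone. Tsc2 stood at 0.08 ± 0.11 and at 0.49 with library totals alone. Mtor (-0.18 ± 0.08) and Rptor (-0.26 ± 0.12) were at 0.24 and 0.16 with library totals alone. Ddit4, at 1.14 ± 1.34, was at 2.57 without replicate 2 of untreated KO.

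Ratios of FPKM between members of the same library do not depend on how libraries are scaled. These ratios were chosen after the levels had been seen and are given as descriptions. The ratio of Rictor to Rptor, the scaffolds of mTORC2 and mTORC1, was 0.594, 0.624 and 0.661 in KO with oxLDL, and 0.675, 0.724 and 0.723 in untreated KO. It was 1.16, 1.37 and 1.40 in WT with oxLDL, against 0.957, 0.909 and 0.796 in untreated WT. Rictor thus exceeded Rptor per length in the 3 WT libraries with oxLDL and in none of the other 9. The ratio of Tsc1 to Tsc2 was 0.977 to 1.07 in the 6 KO libraries, 0.56 to 0.632 in oxLDL-treated WT cells and 0.665 to 0.804 in untreated WT cells. Mlst8 over Mtor was 0.468 to 0.598 in KO libraries, 0.334 to 0.395 in oxLDL-treated WT cells and 0.523 to 0.627 in untreated WT cells. Deptor over Mtor was 0.636 to 0.774 in KO libraries, 0.0141 to 0.0225 in oxLDL-treated WT cells and 0.449 to 0.502 in untreated WT cells.

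**Figure D3:**
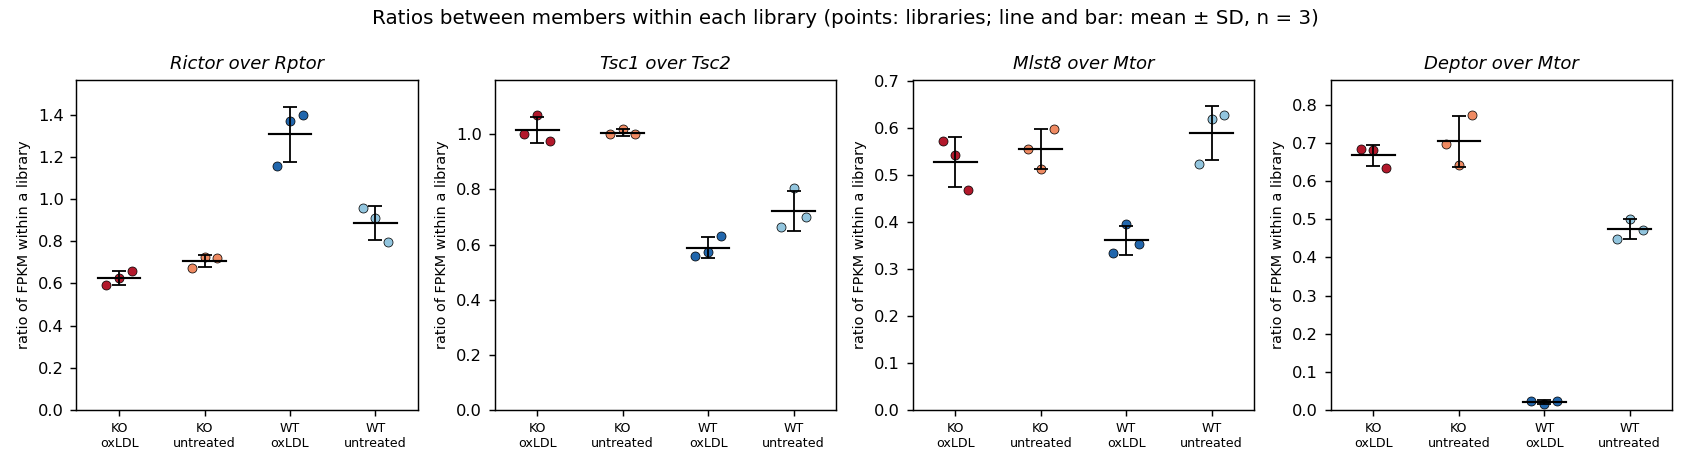
Ratios of deposited FPKM within each library (vertical axes from 0) for Rictor over Rptor, Tsc1 over Tsc2, Mlst8 over Mtor and Deptor over Mtor in the 4 groups; points are libraries, lines and bars the mean ± SD of 3. WT with oxLDL overlaps no other group in any panel, with Rictor over Rptor at 1.16 to 1.40. For Tsc1 over Tsc2 the wider gap is between genotypes. WT is at 0.56 to 0.632 with oxLDL and 0.665 to 0.804 untreated, against 0.977 to 1.07 in KO.

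Around the complexes, 6 lists of other pathway genes held 84 genes, of which 83 were tested. None of the 83 was called for oxLDL in KO, beside 0.0116% of all genes. For KO against WT with oxLDL 38 were higher and 21 lower (71.1%, beside 57.9% of all genes), and for KO against WT untreated 25 were higher and 6 lower (37.3%, beside 31%). Over all genes 30.6% were higher and 27.4% lower with oxLDL, and 14.8% higher and 16.2% lower untreated. With library totals alone the splits of the lists were 51 and 16 with oxLDL, and 18 and 20 untreated. All genes called then numbered 10840 and 5615 of 17291, with 69.5% and 31.5% of them higher. In WT, 19 had higher and 37 lower levels with oxLDL (67.5%, beside 51.2%, with 23.9% higher and 27.2% lower over all genes), or 15 and 59 with library totals alone, where 21.1% of all called genes were higher. Nothing is read from these WT counts. Their median difference was 0.14 log2 for KO against WT with oxLDL and 0.05 untreated, against 0.05 and -0.01 over all genes.

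The amino acid arm brings mTORC1 to the lysosome. Of its 27 genes, 15 were higher and 5 lower in KO than in WT with oxLDL, beside 30.6% and 27.4% of all genes. Untreated, 9 were higher and 2 lower, beside 14.8% and 16.2% of all genes. With library totals alone these were 17 and 3, and 5 and 6. Beside them, 10840 and 5615 of 17291 genes were called, 69.5% and 31.5% of them higher. Sesn1, which encodes a sestrin that restrains mTORC1, averaged 25.4 ± 1.2 FPKM in KO with oxLDL, 26.4 ± 0.4 in untreated KO, 1.25 ± 0.058 in WT with oxLDL and 13 ± 1.1 FPKM in untreated WT (SD, n = 3). KO exceeded WT by 4.03 ± 0.07 log2 with oxLDL (edgeR adjusted p = 1.04e-15) and by 1.13 ± 0.06 log2 untreated (edgeR adjusted p = 9.09e-10). Rragd, a Rag GTPase, averaged 15.6 ± 0.13 FPKM in untreated KO, against 7.13 ± 0.067 FPKM in untreated WT (1.23 ± 0.06 log2, edgeR adjusted p = 3.84e-10). With oxLDL it averaged 14.8 ± 0.9 FPKM in KO and 1.01 ± 0.079 FPKM in WT. Rragb, another Rag GTPase, had 65 to 75 counts in KO libraries with oxLDL, against 0 to 4 counts in WT libraries with oxLDL, and its fitted difference of 5.13 ± 0.79 log2 (edgeR adjusted p = 5.69e-05) rests on these low counts. The GATOR2 subunit genes Wdr59 (-1.37 ± 0.09 log2) and Seh1l (-0.90 ± 0.07 log2) were lower in KO than in WT with oxLDL, as was Sec13 untreated (-0.44 ± 0.09 log2). Sesn3 was lower in untreated KO as well, at 0.331 ± 0.078 FPKM against 0.618 ± 0.058 FPKM in untreated WT.

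The phosphoinositide 3-kinase and AKT list held 17 genes. With oxLDL, 6 were higher and 6 lower in KO than in WT, beside 30.6% and 27.4% of all genes. With library totals alone these were 10 and 4, beside 10840 of 17291 genes called, 69.5% of them higher. Irs2 and Insr, which carry insulin signals to the kinase, were higher in KO, Irs2 by 2.56 ± 0.10 and Insr by 1.58 ± 0.06 log2. The leukocyte catalytic subunit genes Pik3cg and Pik3cd were lower in KO, with Pik3cg at 11.5 ± 0.21 FPKM in KO against 33.6 ± 1.5 FPKM in WT (-1.85 ± 0.04 log2, edgeR adjusted p = 3.43e-14) and Pik3cd at -1.25 ± 0.05 log2. Untreated, 6 were higher and 6 lower with library totals alone, beside 5615 of 17291 genes called, 31.5% of them higher. With TMM 7 were higher and 2 lower untreated, beside 14.8% and 16.2% of all genes. Irs2 was among the higher ones, at 6.01 ± 0.4 FPKM in KO against 4.16 ± 0.27 FPKM in WT (0.64 ± 0.09 log2, edgeR adjusted p = 8.25e-05). Pik3cd (-0.48 ± 0.05 log2) and Pik3cg (-0.24 ± 0.04 log2) were the lower ones.

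Of 18 mTOR substrates and effectors, 11 were higher and 5 lower in KO than in WT with oxLDL, beside 30.6% and 27.4% of all genes, and 4 were higher and 2 lower untreated, beside 14.8% and 16.2%. With library totals alone these were 12 and 4, and 4 and 4. Beside them, 10840 and 5615 of 17291 genes were called, 69.5% and 31.5% of them higher. Lpin1, a phosphatidate phosphatase that mTORC1 phosphorylates, averaged 9.62 ± 0.42 FPKM in KO with oxLDL, 9.19 ± 0.084 in untreated KO, 0.144 ± 0.036 in WT with oxLDL and 2.97 ± 0.29 FPKM in untreated WT (SD, n = 3). Those are KO against WT differences of 5.72 ± 0.13 log2 with oxLDL (edgeR adjusted p = 1.96e-14) and 1.73 ± 0.10 log2 untreated (edgeR adjusted p = 2.93e-09). Eef2k, which slows translation elongation, had 1.5 ± 0.046 FPKM in KO with oxLDL, against 0.117 ± 0.032 FPKM in WT with oxLDL (3.36 ± 0.155 log2). Sgk1, an mTORC2 substrate, averaged 209 ± 4.3 FPKM in untreated KO and was higher there than in untreated WT by 0.68 ± 0.04 log2. With oxLDL it averaged 206 ± 9.1 FPKM in KO and 93.2 ± 1.9 FPKM in WT. Larp1, which holds the messages of the translation machinery, and Eif4e, the cap-binding factor, were lower in KO in both treatments: Larp1 had 28 ± 1.3 FPKM in KO against 86.2 ± 4.2 FPKM in WT with oxLDL (-1.93 ± 0.05 log2) and was at -0.61 ± 0.05 log2 untreated, and Eif4e was at -1.24 ± 0.05 and -0.31 ± 0.05 log2.

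Among 6 further complex subunits and assembly factors, Mapkap1, an essential mTORC2 subunit, was higher in KO than in WT with oxLDL (0.38 ± 0.05 log2) and untreated (0.29 ± 0.05 log2), and the assembly factor gene Telo2 was higher with oxLDL (0.47 ± 0.12 log2). Prr5l, whose product associates with mTORC2, was lower in KO with oxLDL, at 1.88 ± 0.11 FPKM against 2.85 ± 0.18 FPKM in WT (-0.90 ± 0.10 log2, edgeR adjusted p = 2.58e-06), but higher in KO untreated, at 2.01 ± 0.13 FPKM against 1.44 ± 0.14 FPKM in WT (0.58 ± 0.10 log2, edgeR adjusted p = 0.000478). Of 9 tested AMPK and stress genes, 4 were higher and 1 lower in KO with oxLDL, beside 57.9% of all genes called. Untreated, 3 were higher and 0 lower, beside 31% of all genes called. With library totals alone these were 7 and 1, and 1 and 1. Beside them, 10840 and 5615 of 17291 genes were called, 69.5% and 31.5% of them higher. The AMPK subunit gene Prkag2 had 4.35 ± 0.27 FPKM in KO against 0.375 ± 0.086 FPKM in WT with oxLDL (3.22 ± 0.14 log2), Prkab2 was higher by 1.35 ± 0.15 log2 and Prkab1 lower (-0.63 ± 0.08 log2). Cab39, a partner of the kinase LKB1, averaged 37.1 ± 0.66 FPKM in KO and 19.9 ± 0.27 FPKM in WT with oxLDL. Untreated, Cab39 was higher in KO (0.55 ± 0.04 log2), as were Prkab2 (0.45 ± 0.14 log2) and Prkag2 (0.37 ± 0.12 log2). Both of these missed the threshold with library totals alone (edgeR adjusted p of 0.0806 for Prkab2 and 0.139 for Prkag2). The call of Prkab2 was also lost without replicate 3 of untreated KO or any 1 of the 3 untreated WT libraries (0.35 to 0.47 log2), and that of Prkag2 without any 1 of the 3 untreated KO libraries or replicate 1 or 3 of untreated WT (0.31 to 0.38 log2). Of 6 genes for the machinery known to degrade DEPTOR protein, 3 were called with oxLDL, all lower in KO than in WT, beside 57.9% of all genes called and 27.4% lower, so the count is near that of all genes. None was called untreated, beside 31% of all genes. The 3 were Fbxw11 (15.6 ± 1 against 25.9 ± 0.42 FPKM; -1.04 ± 0.05 log2), a βTrCP ubiquitin ligase subunit, Csnk1a1 (-0.60 ± 0.05 log2), a casein kinase, and Cul1 (-0.51 ± 0.04 log2), a cullin. With library totals alone 2 genes of this list were higher and 3 lower with oxLDL, and 0 were higher and 2 lower untreated. Beside them, 10840 and 5615 of 17291 genes were called, 69.5% and 31.5% of them higher.

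**Figure D4:**
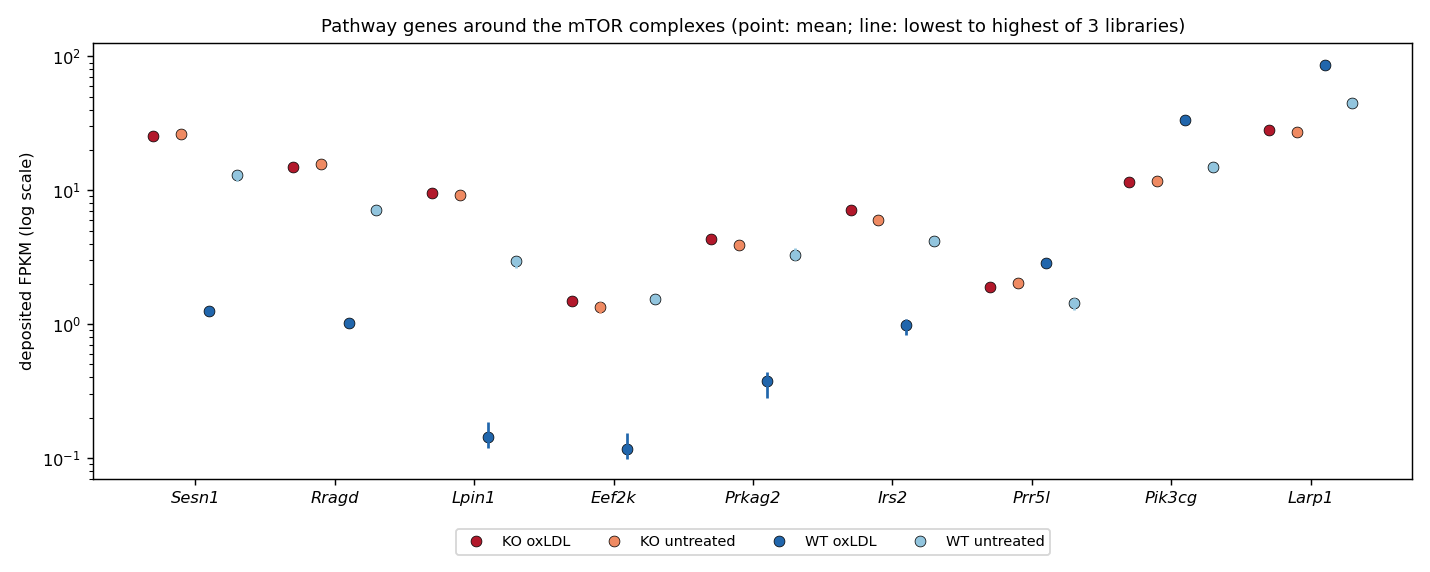
Mean deposited FPKM (vertical log axis; lines from the lowest to the highest of 3 libraries, hidden by the points where short) of 9 pathway genes in KO with oxLDL, untreated KO, WT with oxLDL and untreated WT. Sesn1 averages 1.25 and Lpin1 0.144 FPKM in WT with oxLDL, while Pik3cg and Larp1 are highest there at 33.6 and 86.2 FPKM.

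The profile of Deptor over the 12 libraries was shared by many genes. Of the 17290 other genes tested, 1116 had a Pearson r above 0.95 with Deptor on the log2 scale and 1114 an r below -0.95, since the 3 WT libraries with oxLDL, which share a group, stand apart for all of them. The 5 genes most like it were Rcan3 (r = 0.9975), a calcineurin regulator, Arrb1 (0.9974), β-arrestin 1, Gpr155 (0.9971), Bach1 (0.9967), a transcription factor of haem-regulated genes, and Fry (0.9965). Arrb1 averaged 24.8 FPKM in KO with oxLDL, 25.7 in untreated KO, 1.44 in WT with oxLDL and 20 FPKM in untreated WT. Gpr155, known from human cells as a lysosomal cholesterol sensor, averaged 1.59, 1.83, 0.123 and 1.32 FPKM in the same groups. The 3 most opposite genes were Pik3cg (-0.9971), the interleukin-1 receptor antagonist gene Il1rn (-0.9969) and Samsn1 (-0.9965).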

How the data were processed

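RNA of 12 libraries was sequenced as poly(A) paired-end libraries on an Illumina NovaSeq, per the labels' protocols. HISAT2 version 2.0, Bowtie version 0.12.2 and build mm8 are named in the submitters' processing notes. The deposited gene positions overlapped the GRCm38.p6 positions of RefSeq for 99.93% of 21990 genes matched by Entrez identifier, so they are given as GRCm38. The sources used here do not give the counting tool, annotation or strand setting. Raw counts per gene were made and deposited by the authors, as was FPKM, per the file headers. All per-sample columns were used.

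From the counts, edgeR 4.0.16 in R 4.3.3 was run over all genes with TMM scaling, filterByExpr and 4 group means in one quasi-likelihood fit, with calls made where p after Benjamini-Hochberg adjustment was under 0.05. The test was checked on simulated data. DESeq2 1.42.0 on the counts and limma 3.58.1 on log2(FPKM + 1) or log2(FPKM + 0.1) were alternatives. SE is the fitted log2 difference over the square root of its F statistic. The members, lists, ratios and comparisons were chosen with earlier results of these data known. Members are all named; of each list, at most the 2 genes with the largest higher and the 2 with the largest lower difference among those called are named per comparison, or all where 4 or fewer were called, with WT oxLDL differences mostly left out and 1 gene that meets this rule not reported here. Genes like Deptor are the 5 highest and 3 lowest in Pearson r of log2 CPM (prior count 2). No label says that replicates came from separate animals, so p-values measure the spread between these libraries, which may be technical. An exact permutation test of 3 against 3 reaches p = 0.1 at best, and none is used here.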

Additional observations from a re-analysis of the deposited data

How the results depend on the processing

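The counts of called members and the fitted differences were recomputed under 9 other settings (the KO minus WT oxLDL change not with only the 2 groups compared, and list counts only with library totals alone, limma on log2(FPKM + 1) and DESeq2), with each of the 12 libraries left out in turn, and without the 2 shallowest libraries (WT replicate 2 of both treatments), the last chosen after seeing the data. For oxLDL in KO, 1 member was called, Akt1s1, with DESeq2 (beside 110 of 13595 genes) and with only the 2 groups compared (beside 61 of 15871). With 1 library left out it was 0 to 1 member, beside 0 to 57 of all genes tested. For KO against WT untreated, 5 of 9 were called with only the 2 groups compared, beside 5694 of 16105 genes. With 1 library left out it was 2 to 5 members, beside 4553 to 5480 of all genes tested. For KO against WT with oxLDL, 8 of 9 were called with library totals alone, beside 10840 of 17291 genes. With 1 library left out it was 4 to 5 members, beside 9422 to 10008 of all genes tested.

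Deptor kept its direction in WT and between genotypes under these settings. With library totals alone, limma on log2(FPKM + 1) and limma on log2(FPKM + 0.1), its difference was 5.18, 2.3 and 4.4 log2 for KO against WT with oxLDL, -4.74, -1.95 and -3.97 for oxLDL in WT, and 4.7, 1.92 and 3.93 for the KO minus WT oxLDL change; a pseudocount shrinks the change of a low gene by construction. With 1 library left out these were 4.68 to 5.02, -4.49 to -4.15 and 4.1 to 4.43, with 0.532 to 0.672 for KO against WT untreated and -0.129 to 0.0187 for oxLDL in KO. In the same order of settings, Mtor turned to 0.145, 0.125 and 0.142 for KO against WT with oxLDL and to -0.199, -0.173 and -0.197 for oxLDL in WT, and Rptor to -0.0737, -0.0557 and -0.0689 for oxLDL in WT. The KO minus WT oxLDL change of Mtor turned to 0.235 under library totals and to 0.2 under limma with a pseudocount of 1. With library totals alone, Rptor turned to 0.205 and Rheb to 0.188 for KO against WT with oxLDL. All of these settings leave out the TMM factors. A further 29 sign changes were of values called in neither fit.

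No pairing of libraries by replicate number was apparent, although this check with 3 libraries per group cannot exclude it. Deviations of same-numbered libraries correlated above 0.1 in 5 of 18 pairs (r of -0.239 to 0.463). Those of other numbers did so in 9 of 36 (r of -0.351 to 0.329). With a replicate block, the call of Akt1s1 for KO against WT untreated was lost (-1.27 log2, edgeR adjusted p = 0.0545), leaving 2 members called, and the calls over all genes numbered 5056 for that comparison. Ddit4, with 0 to 38 counts per library, is the member for which low counts and their spread between libraries limit what could be seen.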

Other observations

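The genes whose within-group deviations were most like those of Akt1s1 are described here. Picked from all genes tested, they have high r in part by that choice. Over the 12 libraries, its deviations from the group means followed those of Igsf8 and Gdf15 (Pearson r = 0.986 for each), Slc15a3 (0.984), Rilpl2 (0.983) and Nr1h2 (0.98), the liver X receptor β gene, all picked as the highest after the values had been seen and given with no test. Gdf15, a stress-induced cytokine gene, had a within-group SD of 0.918 on the log2 scale, against 0.617 for Akt1s1. Between Akt1s1 and Ddit4 the deviations had an r of 0.569. Mtor and Rptor deviated together (r = 0.872), as did Mtor and Tsc2 (0.806), whereas Rheb deviated opposite to Mtor (-0.822) and Tsc2 (-0.766). These deviations share libraries and their scaling.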
